A study of Mus musculus with 28 samples.

Results

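Mouse embryonic fibroblasts (MEFs) were compared with the cells that chemical reprogramming made from them, which the study calls ciEPCs and assigns to the endoderm lineage. The comparison held 12 of the 28 RNA-seq libraries of the series: 3 MEF cultures and 9 ciEPC libraries from 2 numbered lines. Line 1 was sampled at passages 2, 3, 4, 6, 10 and 22 and line 2 at passages 1, 5 and 10. The passages of a line are repeated samples of the same cells, so they were summed and n was 2 lines against 3 cultures in every test. The libraries were chosen by their labels, except that the library of line 2 at passage 22, which has the ciEPC label too, was set aside for its high Pou5f1 and Nanog, markers of pluripotent stem cells. Levels of pluripotency genes in the ciEPCs are therefore given as a description.

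The MEFs came from E13.5 embryos and were at passage 2. They and the ciEPCs shared a strain background, from 129Sv/Jae females mated with Oct4-GFP transgenic CBA/CaJ X C57BL/6J animals, so the control cells carried the reporter allele too. The labels name neither the compounds, nor the time of treatment, nor how the lines were picked, and they do not say whether the 3 MEF cultures came from separate embryos. The p-values therefore measure the spread between these samples only.

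Fibroblasts are mesenchymal cells that secrete an interstitial matrix of fibrillar collagens and pull on it with actin stress fibres. Endoderm is the germ layer of the gut, liver and pancreas, and its extraembryonic branch lines the yolk sac. Its cells are polarised epithelia, joined by tight and adherens junctions, that rest on a basement membrane of laminin and type IV collagen, and their identity is set by GATA, SoxF, FoxA and HNF transcription factors. Passing from fibroblast to endoderm thus asks for a mesenchymal-to-epithelial transition as well as a change of lineage.

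Levels are given as CPM, counts scaled to library size, for a gene followed across libraries, and as TPM, which also corrects for length, where genes are compared with each other. A gene rose or fell when its adjusted p from edgeR's quasi-likelihood test was under 0.05 and its change at least 2-fold, and 'called' means either. Values after ± beside a log2 change are standard errors of that fit, and leave-outs are the 14 fits that drop 1 ciEPC library, 1 MEF culture or 1 line; their range is printed where it moved a change by over 1.5 times. Levels are of the 3 MEF cultures in the order of their numbers, and of the 9 ciEPC libraries by the lowest, the highest and the median. A called gene given with its adjusted p had all 9 ciEPC libraries on the same side of the 3 MEF cultures, unless stated otherwise. Of the ciEPC libraries, passage 2 of line 1 stood apart in fibroblast genes and passage 22 of line 1 in sex chromosome genes, and both were among the leave-outs. The MEF libraries held 3548977 to 5218402 expected counts and the ciEPC libraries 1439670 to 3352758. Gene lengths in the deposited tables put the mean read length at 74.5 bases in MEF and at 50.5 to 50.6 in the ciEPC libraries, so read length and cell type cannot be told apart in this comparison. In bulk RNA, fewer cells of a type and less RNA per cell cannot be told apart either.

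Of 16055 genes tested, 2747 rose (17.1%) and 2717 fell (16.9%), which is 34.0% called, and the median log2 change was 0.07. With limma on log2(TPM + 0.1) in place of counts 3250 rose and 2049 fell, around a median of 0.31. All 9 ciEPC libraries lay above all 3 MEF cultures for 2560 genes (15.9%) and below them for 3381 (21.1%). Of the genes called, 328 rose from no count at all in MEF and 131 fell to no count in any ciEPC library. The largest rises among well expressed genes included several gut genes. S100g, which encodes the vitamin D-dependent calcium-binding protein calbindin-D9k of the intestine, had no counts in MEF and 293 to 1839 CPM, median 1267, in ciEPC (at least 4179.6-fold higher, adjusted p = 1.25e-08). Its mean of 5769 TPM made it the fourth most abundant transcript of the ciEPCs. Hkdc1, a hexokinase-related gene of gut epithelia, had no counts in MEF and 154 to 446 CPM, median 297, in ciEPC (at least 1065-fold higher, adjusted p = 1.38e-06). Gkn1, a gastrokine secreted by the stomach lining, had no counts in MEF and 53 to 444 CPM, median 173, in ciEPC (at least 862-fold higher, adjusted p = 1.1e-05), and its relative Gkn2 had no counts in MEF and 46.7 to 251 CPM, median 171, in ciEPC (at least 563-fold higher, adjusted p = 9.45e-06). Each of these genes was thus not detected in MEF. Their presence in all 9 ciEPC libraries follows from the rule for the largest rises, which asked for no overlap between libraries.

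**Figure D1:**
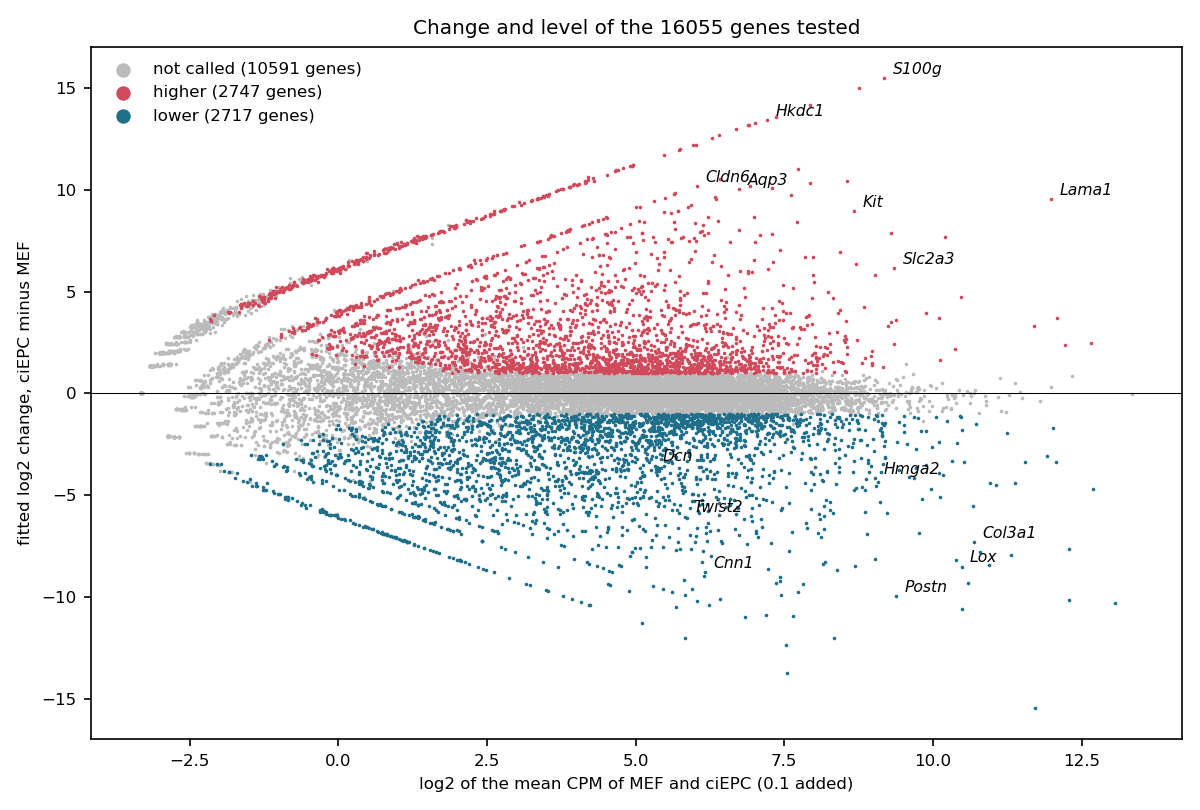
Fitted log2 change, ciEPC minus MEF, against the log2 of the mean CPM of both groups for the 16055 genes tested, each point a gene; red points rose (2747), blue points fell (2717) and grey points did not pass the test. The diagonal edges are genes with no counts in 1 of the groups, whose fitted change follows the other group's level and is no measure of size; S100g and Hkdc1 lie on the upper edge.

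Core transcription factors of endoderm rose. Of the SoxF and GATA factors, 5 rose and 0 fell among 5 tested of 6 listed (median log2 change 8.26, 7.87 with genes at 0 counts set to their bound). Sox7, a SoxF factor of primitive endoderm, had 0.336, 0.687 and 0.288 CPM in MEF and 45.9 to 301 CPM, median 122, in ciEPC (log2 change 8.26 ± 0.68, adjusted p = 1.11e-07). Gata6, a founding factor of primitive endoderm, was already present in MEF, at 25.4 ± 14.4 CPM (SD, n = 3), and had 176 to 541 CPM, median 264, in ciEPC (log2 change 3.63 ± 0.38, adjusted p = 1.35e-06). Its level in line 1 ran from 176 CPM at passage 2 to 541 at passage 22, and in line 2 from 207 at passage 1 to 454 at passage 10.

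Of the FoxA, HNF and gut endoderm factors, 12 rose and 1 fell among 15 tested of 16 listed (median log2 change 3.95). Foxa3, a FoxA factor of gut and liver, had no counts in MEF and 1.12 to 36.6 CPM, median 22, in ciEPC (at least 60-fold higher, adjusted p = 1.41e-06). It was lowest at passage 22 of line 1. Prox1, a homeobox factor of liver and pancreas precursors, had 1.68, 2.29 and 0 CPM in MEF and 13.4 to 78.4 CPM, median 31.3, in ciEPC (log2 change 4.96 ± 0.68, adjusted p = 1.96e-05, 4.26 to 5.72 over the leave-outs). Isx, an intestinal homeobox factor, had no counts in MEF and 0.285 to 32 CPM, median 10.8, in ciEPC (at least 46.9-fold higher, adjusted p = 0.00015). The libraries disagreed widely on it. Prdm1, a repressor that is also active in early gut, was the member that fell, with 9.4, 4.58 and 4.9 CPM in MEF and 0 to 1.67 CPM, median 0.359, in ciEPC (log2 change -3.44 ± 0.69, adjusted p = 0.000644). Pdx1, the pancreas and duodenum factor, stayed low at no counts in MEF and 0.333 to 6.01 CPM, median 1.2, in ciEPC (at least 8.64-fold higher, adjusted p = 0.00171).

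Of genes of the transient mesendoderm stage, 2 rose and 1 fell among 15 tested of 16 listed, beside 17.1% and 16.9% of all genes. Eomes, a T-box factor of mesendoderm and of visceral endoderm, had 0.671, 0.229 and 2.88 CPM in MEF and 22 to 61.5 CPM, median 31.6, in ciEPC (log2 change 4.82 ± 0.81, adjusted p = 0.000134, 4.22 to 6.33 over the leave-outs). Goosecoid (Gsc), a factor of the gastrula organiser, had 2.35, 2.98 and 1.73 CPM in MEF and no counts in ciEPC (at least 19.1-fold lower, adjusted p = 0.000306). Of the mesendoderm genes, 1 rose without line 1 or passage 22 of line 1 and 2 fell without passage 2 of line 1, MEF culture 2, MEF culture 3, line 1, passage 4 of line 1, passage 10 of line 1 or passage 22 of line 1.

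Visceral endoderm is the absorptive epithelium around the early embryo, and genes of its uptake machinery rose. Of the list, 12 rose and 1 fell among 22 tested of 22 listed (median log2 change 4.25, 3.36 with genes at 0 counts set to their bound). Cubn, the endocytic receptor cubilin, had 7.39, 4.12 and 4.32 CPM in MEF and 106 to 1291 CPM, median 451, in ciEPC (log2 change 6.71 ± 0.46, adjusted p = 2.11e-08). Amn, which encodes the amnionless subunit that anchors cubilin, had 0, 0.458 and 0.577 CPM in MEF and 8.66 to 242 CPM, median 84.2, in ciEPC (log2 change 8.09 ± 0.75, adjusted p = 3.86e-07). Lrp2, the megalin receptor that works beside them, had 40.6, 15.6 and 19.9 CPM in MEF and 257 to 1366 CPM, median 559, in ciEPC (log2 change 4.69 ± 0.53, adjusted p = 3.04e-06). In line 1 Cubn was at 106 CPM at passage 2 and 1291 at passage 3, and Amn was at 8.66 and 242, so the receptor and its anchor were lowest in the same early library. Apoe, the lipid carrier apolipoprotein E, had 16.4, 32.5 and 37.2 CPM in MEF and 106 to 601 CPM, median 291, in ciEPC (log2 change 3.44 ± 0.47, adjusted p = 2.01e-05). Rhox5, a homeobox gene on the X chromosome, had 0.336, 1.14 and 0.288 CPM in MEF and 36.3 to 247 CPM, median 138, in ciEPC (log2 change 7.76 ± 0.44, adjusted p = 9.71e-09, 7.44 to 8.73 over the leave-outs). Apoe was present in MEF and Rhox5 was close to absent there. Cited1, a transcriptional coactivator, had 0, 1.14 and 0 CPM in MEF and 79 to 771 CPM, median 292, in ciEPC (log2 change 9.73 ± 0.71, adjusted p = 3.44e-08, 9.21 to 13.87 over the leave-outs). Dab2, the adaptor of megalin endocytosis, was already expressed in MEF and did not pass the test, with 140, 200.3 and 165 CPM in MEF and 57.1 to 370.4 CPM, median 294, in ciEPC (log2 change 0.58 ± 0.50, adjusted p = 0.357). Cd59a, which encodes a complement inhibitor, fell, with 11.1, 6.62 and 8.94 CPM in MEF and 0 to 7.66 CPM, median 1.14, in ciEPC (log2 change -2.13 ± 0.41, adjusted p = 0.000495, -2.82 to -1.77 over the leave-outs, ranges overlapping).

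Parietal endoderm, the migratory cell layer that lays down Reichert's membrane, was represented as well: 6 rose and 2 fell among 12 tested of 12 listed (median log2 change 1.34). Gkn2, named above among gut genes, is in this list too and is 1 of the 6. Pth1r, the parathyroid hormone receptor of parietal endoderm, had 10.4, 29.5 and 16.4 CPM in MEF and 391 to 757 CPM, median 555, in ciEPC (log2 change 4.98 ± 0.43, adjusted p = 1.92e-07). Srgn, the core protein serglycin of secretory granules, had 1.01, 0 and 0.865 CPM in MEF and 440.4 to 1071 CPM, median 747, in ciEPC (log2 change 10.41 ± 0.97, adjusted p = 4.23e-07, 9.68 to 10.93 over the leave-outs). Markers of both extraembryonic layers were therefore measured in the same libraries, and bulk RNA does not show whether they were in the same cells.

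Of the hepatocyte list, which holds genes of differentiated liver, 3 rose and 2 fell among 24 tested of 28 listed (median log2 change 1.71, 1.47 with genes at 0 counts set to their bound), beside 17.1% and 16.9% of all genes. Its summed level was 159 to 704 CPM in MEF and 32.2 to 143 CPM in ciEPC, the MEF part being mostly Dlk1, a gene of fetal liver and mesenchyme, with 155, 621 and 84.2 CPM in MEF and 1.08 to 54.1 CPM, median 14.6, in ciEPC (log2 change -4.0 ± 0.87, adjusted p = 0.00154, -5.48 to -2.76 over the leave-outs). F2, prothrombin, a liver gene outside the list, had no counts in MEF and 43.9 to 206 CPM, median 72.5, in ciEPC (at least 382-fold higher, adjusted p = 0.000105). Of the stomach, intestine and pancreas genes, 9 rose and 2 fell among 16 tested of 22 listed (median log2 change 4.11, 3.15 with genes at 0 counts set to their bound). Tff1, the trefoil peptide of gastric mucus, had no counts in MEF and 17.5 to 323 CPM, median 68.9, in ciEPC (at least 386-fold higher, adjusted p = 0.000751). Its libraries ran from 17.5 CPM at passage 1 of line 2 to 323 at passage 4 of line 1. Gpx2, the gastrointestinal glutathione peroxidase, had no counts in MEF and 38.3 to 266 CPM, median 94.5, in ciEPC (at least 451-fold higher, adjusted p = 3.99e-06). Of the hepatocyte genes, 1 rose without MEF culture 1, MEF culture 2, MEF culture 3 or line 1 and 6 rose without passage 5 of line 2. Of the stomach, intestine and pancreas genes, 1 fell without MEF culture 1, MEF culture 2, line 1, line 2, passage 3 of line 1, passage 4 of line 1, passage 10 of line 1, passage 1 of line 2 or passage 5 of line 2.

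The epithelial program came on as a block. Of the junction genes, 19 rose and 0 fell among 22 tested of 22 listed (median log2 change 5.97, 5.21 with genes at 0 counts set to their bound), and of the epithelial regulators and polarity genes 19 rose and 0 fell among 19 tested of 19 listed (median log2 change 7.99, 6.10 with genes at 0 counts set to their bound). Tjp1, Jup and Pkp2, the junction genes not called, encode plaque proteins that fibroblasts also use, and Tjp1 had 182, 184 and 173 CPM in MEF and 142 to 263 CPM, median 179, in ciEPC. Cldn6, a claudin of embryonic epithelia, had 0, 0.229 and 0 CPM in MEF and 40.8 to 276 CPM, median 141, in ciEPC (1725-fold higher by counts, counting interval 309.5 to 68171, adjusted p = 9.18e-06). Lsr, which seals the corners where 3 cells meet, had 1.52, 7.53 and 1.92 CPM in MEF and 189 to 276 CPM, median 240.4, in ciEPC (log2 change 5.93 ± 0.48, adjusted p = 1.04e-07, 5.63 to 7.01 over the leave-outs). Claudin 4 (Cldn4) had 0, 2.06 and 0.577 CPM in MEF and 4.86 to 122 CPM, median 32.4, in ciEPC (log2 change 5.48 ± 0.68, adjusted p = 7.43e-06, 5.03 to 7.07 over the leave-outs).

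Among the regulators, Grhl2, a grainyhead factor that activates junction genes, had no counts in MEF and 11.6 to 50.8 CPM, median 27.1, in ciEPC (at least 111-fold higher, adjusted p = 7.05e-08). Esrp1, a splicing factor that sets epithelial isoforms, had 0.336, 0.458 and 0 CPM in MEF and 73 to 144 CPM, median 95.2, in ciEPC (355-fold higher by counts, counting interval 121 to 1721, adjusted p = 1.63e-08). Ovol2, a zinc finger factor that represses mesenchymal regulators, reached lower levels, with no counts in MEF and 1.49 to 13.3 CPM, median 7.3, in ciEPC (at least 27-fold higher, adjusted p = 1.33e-05). Elf3, an epithelial ETS factor, had 0.336, 0.916 and 0.288 CPM in MEF and 68.6 to 289 CPM, median 117, in ciEPC (log2 change 7.96 ± 0.63, adjusted p = 1.31e-07, 7.68 to 8.72 over the leave-outs). These regulators were all near 0 in MEF. The membrane protease matriptase (St14) had 0.336, 0.916 and 0.577 CPM in MEF and 89.5 to 492 CPM, median 258, in ciEPC (log2 change 8.68 ± 0.44, adjusted p = 2.15e-09). Its inhibitor Spint1 had 0.336, 0.687 and 0 CPM in MEF and 58.6 to 319 CPM, median 133, in ciEPC (log2 change 8.66 ± 0.39, adjusted p = 1.31e-09, 8.13 to 9.75 over the leave-outs). Crb3, a polarity protein of the apical membrane, had no counts in MEF and 17.9 to 74.4 CPM, median 34.6, in ciEPC (at least 139.6-fold higher, adjusted p = 6.89e-09). Ap1m2, the clathrin adaptor subunit of basolateral sorting, had 0.336, 0 and 0 CPM in MEF and 2.61 to 92.6 CPM, median 74.3, in ciEPC (705-fold higher by counts, counting interval 126 to 27862, adjusted p = 1.29e-08), and its low value came from passage 22 of line 1. That library also held the lowest ciEPC value of Grhl2, St14, Spint1, Crb3 and Ovol2.

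Keratins, the intermediate filaments of epithelia, followed in part: 6 rose and 1 fell among 10 tested of 10 listed (median log2 change 3.38, 1.85 with genes at 0 counts set to their bound). Krt7, a keratin of ducts and glands, had 8.06, 14.7 and 11.5 CPM in MEF and 22.3 to 1170.4 CPM, median 123, in ciEPC (log2 change 5.18 ± 0.49, adjusted p = 4.61e-07, 4.51 to 5.69 over the leave-outs), with its peaks at passage 10 of line 1 and passage 5 of line 2. Krt23 had no counts in MEF and 12.2 to 55.8 CPM, median 31.2, in ciEPC (at least 112-fold higher, adjusted p = 1.37e-07). Vimentin (Vim), the mesenchymal counterpart, had 6483, 5371 and 4499.9 CPM in MEF and 204 to 1351 CPM, median 413, in ciEPC (log2 change -3.37 ± 0.47, adjusted p = 2.23e-05), so it fell without being lost.

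**Figure D2:**
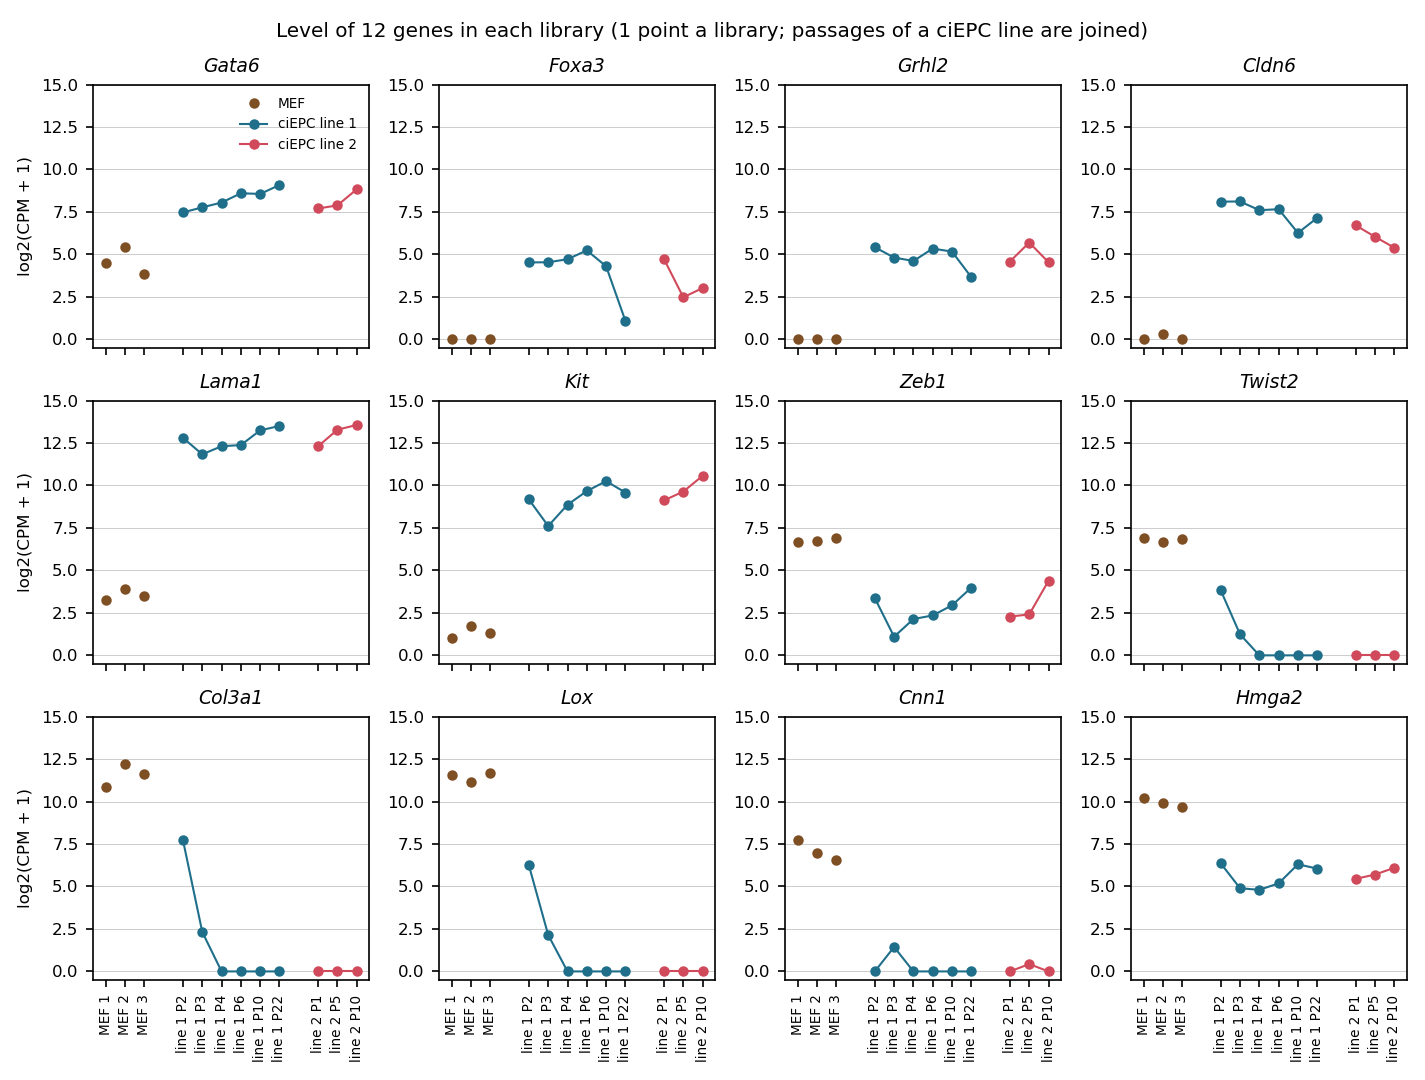
Level of 12 genes as log2(CPM + 1) in each library, with MEF cultures in brown, line 1 in blue and line 2 in red. Foxa3 and Grhl2 had no counts in MEF and were present in all 9 ciEPC libraries, while Twist2, Col3a1 and Lox fell to 0 from passage 4 on in line 1 and in all 3 libraries of line 2.

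The transcription factors that hold cells in the mesenchymal state by repressing junction genes went down: 0 rose and 6 fell among 8 tested of 8 listed (median log2 change -3.72). Zeb1 had 102, 107 and 117 CPM in MEF and 1.14 to 20 CPM, median 4.31, in ciEPC (log2 change -3.77 ± 0.32, adjusted p = 1.41e-07). Zeb2 had 146, 133 and 106 CPM in MEF and 0.974 to 21.3 CPM, median 1.75, in ciEPC (log2 change -4.98 ± 0.52, adjusted p = 1.38e-06, -6.11 to -4.50 over the leave-outs). Both were above 100 CPM in every MEF culture. Snai2 (Slug) had 70.5, 50.1 and 60.2 CPM in MEF and 0 to 4.05 CPM, median 0.848, in ciEPC (log2 change -5.39 ± 0.47, adjusted p = 2.18e-07). The bHLH factor Twist2 had 119.6, 100.3 and 115 CPM in MEF and 0 to 13.2 CPM, median 0, in ciEPC (log2 change -6.05 ± 0.65, adjusted p = 1.1e-05, -11.75 to -5.37 over the leave-outs). Twist2 counts remained only at passages 2 and 3 of line 1. Snai1, the founding member of the Snail family, did not pass the test and had 79.9, 73.7 and 70.9 CPM in MEF and 17.7 to 123 CPM, median 47.8, in ciEPC (log2 change -0.18 ± 0.36, adjusted p = 0.717), with the values above 100 CPM at passages 10 and 22.

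Zeb and Snail proteins bind the E-box CACCTG in promoters of epithelial genes, so the promoters of the members were read from RefSeq on GRCm38.p6, from 250 bases before to 50 after the annotated start. CACCTG was searched on both strands, with overlapping matches counted. The other strings searched on both strands were the E-box CACGTG and, as strings of endoderm factors, TGTTTAC for forkhead proteins, ACAATG for Sox proteins, GTTAAT and a longer palindrome that holds it, and AGATAA. The TATA box, as TATAAA, and the CArG box were searched too. Counts of promoters are counts of genes, each by its promoter with the most copies. A promoter was at hand for 24 of the 41 epithelial genes, 14 of 22 junction genes and 10 of 19 regulators. The other epithelial genes were not read. CACCTG was present in 11 of 14 epithelial junction promoters (78.6%) and 6 of 10 regulator promoters (60.0%), against 6098 of all 27025 genes with a promoter (22.6%). At least 2 copies stood in 11 of the 24 (45.8%), against 3.32% of all. The same hexamer was in 3 of 17 contractile promoters (17.6%), 2 of 12 interstitial collagen promoters (16.7%) and none of 23 cell cycle promoters. It was in 4 of 9 promoters of the FoxA, HNF and gut factors (44.4%), 5 of 18 of the visceral endoderm genes (27.8%), 3 of 14 of the basement membrane genes (21.4%) and none of 14 of the matrix glycoproteins. CACGTG was also more frequent in the epithelial promoters than in all, in 5 of 24 (20.8%) against 8.09%. Of the other strings, AGATAA (12.7% of all), GTTAAT (8.24%) and TATAAA (15.7%) were each in 1 of the 24 (4.17%), and the rest were in none. The median share of G and C was 62.7% in the epithelial promoters, 64.7% in the contractile promoters and 52.8% in all, and its part in these counts was not tested. The CArG box, the serum response factor site, was in 4 of 17 contractile promoters (23.5%) against 1.81% of all. A match is a string of letters and not a bound site. The 5 promoters below are examples from the 11 with at least 2 copies, picked after these counts were seen; capitals mark CACCTG or its reverse complement CAGGTG, and each runs 5′ to 3′ on the gene's strand.
Epcam, chr17:87635729-87636028, plus strand: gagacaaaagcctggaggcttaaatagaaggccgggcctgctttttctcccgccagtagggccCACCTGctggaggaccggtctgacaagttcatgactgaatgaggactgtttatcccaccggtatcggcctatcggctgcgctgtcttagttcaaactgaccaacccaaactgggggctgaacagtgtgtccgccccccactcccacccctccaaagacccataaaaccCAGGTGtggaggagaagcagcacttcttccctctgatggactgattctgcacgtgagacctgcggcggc
Cldn6, chr17:23679115-23679414, plus strand: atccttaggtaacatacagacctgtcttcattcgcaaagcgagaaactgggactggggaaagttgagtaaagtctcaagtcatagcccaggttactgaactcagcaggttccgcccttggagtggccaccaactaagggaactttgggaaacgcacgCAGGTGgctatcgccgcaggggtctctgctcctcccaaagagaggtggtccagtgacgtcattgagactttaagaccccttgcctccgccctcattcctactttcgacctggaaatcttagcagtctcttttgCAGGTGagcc
Lsr, chr7:30973420-30973719, minus strand: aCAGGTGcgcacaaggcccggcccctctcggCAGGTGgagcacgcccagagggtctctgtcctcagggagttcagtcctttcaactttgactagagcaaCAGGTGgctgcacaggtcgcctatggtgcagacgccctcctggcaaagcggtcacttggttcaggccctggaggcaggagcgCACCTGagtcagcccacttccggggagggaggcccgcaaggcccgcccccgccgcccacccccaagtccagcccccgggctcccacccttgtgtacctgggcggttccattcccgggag
Crb3, chr17:57061951-57062250, plus strand: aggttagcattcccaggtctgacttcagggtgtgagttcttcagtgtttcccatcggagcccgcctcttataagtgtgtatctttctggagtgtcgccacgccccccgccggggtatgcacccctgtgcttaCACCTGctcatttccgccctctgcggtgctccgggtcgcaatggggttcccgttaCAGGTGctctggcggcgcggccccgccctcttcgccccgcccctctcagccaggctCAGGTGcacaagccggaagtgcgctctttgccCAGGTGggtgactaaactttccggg
Ap1m2, chr9:21312284-21312583, minus strand: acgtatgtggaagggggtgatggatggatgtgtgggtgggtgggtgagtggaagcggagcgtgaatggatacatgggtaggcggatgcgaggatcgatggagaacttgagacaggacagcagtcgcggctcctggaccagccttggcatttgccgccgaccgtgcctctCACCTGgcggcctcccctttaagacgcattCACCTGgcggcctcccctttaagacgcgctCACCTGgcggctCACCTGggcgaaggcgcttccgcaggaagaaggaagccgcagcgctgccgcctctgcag

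Lsr, Crb3 and Ap1m2 each held 4 copies in their 300 bases, and Epcam and Cldn6 held 2. In Ap1m2 all 4 lay within 81 bases before the start.

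The interstitial matrix genes fell as a whole. Every tested fibrillar and associated collagen fell (0 rose and 16 fell among 16 tested of 16 listed, median log2 change -5.79), and their summed level was 39146 to 51476 CPM in MEF and 199 to 1890.1 CPM in ciEPC. Col1a2, the second chain of type I collagen, had 8738, 11051 and 10334 CPM in MEF and 0 to 78.6 CPM, median 1.43, in ciEPC (log2 change -10.16 ± 1.36, adjusted p = 1.51e-05, -13.93 to -9.32 over the leave-outs). Col3a1, the collagen of loose connective tissue, had 1875, 4750 and 3208 CPM in MEF and 0 to 210.3 CPM, median 0, in ciEPC (log2 change -7.31 ± 1.61, adjusted p = 0.00138, -16.62 to -6.37 over the leave-outs). Its remaining counts were in passages 2 and 3 of line 1, and the leave-out without line 1 gives the larger fall. Col5a1, a regulatory fibril chain, had 3383, 4025 and 3992 CPM in MEF and 85.5 to 241 CPM, median 173, in ciEPC (log2 change -4.39 ± 0.57, adjusted p = 1.15e-05). Col6a2, a chain of the beaded filaments of type VI collagen, had the smallest fitted fall of the list, with 696, 1088 and 840 CPM in MEF and 0 to 267 CPM, median 67.9, in ciEPC (log2 change -3.26 ± 0.52, adjusted p = 0.000105). The glycoproteins of the fibroblast matrix followed (1 rose and 19 fell among 20 tested of 20 listed, median log2 change -5.72). Fn1, fibronectin, had 12655, 10909 and 14631 CPM in MEF and 168 to 1276 CPM, median 280.2, in ciEPC (log2 change -4.69 ± 0.36, adjusted p = 5.5e-08). Postn, periostin, had 1003, 1236 and 1741 CPM in MEF and 0 to 9.33 CPM, median 0, in ciEPC (log2 change -9.94 ± 1.21, adjusted p = 8.28e-06, -12.80 to -9.35 over the leave-outs). Eln, elastin, had 136, 592 and 261 CPM in MEF and 0 to 3.33 CPM, median 0, in ciEPC (log2 change -9.29 ± 0.83, adjusted p = 2.79e-07, -13.31 to -8.60 over the leave-outs). Fbln1, fibulin 1, was the member that rose, with 90.6, 131 and 75.5 CPM in MEF and 273 to 732 CPM, median 535, in ciEPC (log2 change 2.45 ± 0.36, adjusted p = 3.86e-05). Of the small leucine-rich proteoglycans, which organise collagen fibrils, 0 rose and 9 fell among 9 tested of 10 listed (median log2 change -5.51), and the list summed to 4285 to 4522 CPM in MEF and 1.47 to 171 CPM in ciEPC.

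Laminin and type IV collagen went the other way, but only some chains. Of the basement membrane genes, 7 rose and 8 fell among 19 tested of 21 listed (median log2 change -0.23), and their summed level was 9572 to 10839 CPM in MEF and 20458 to 70369 CPM in ciEPC, so the few chains that rose outweighed the rest. The rising chains make up laminin-111 and the common type IV collagen trimer. Lamb1 had 717, 582 and 581 CPM in MEF and 2638 to 10348 CPM, median 4666, in ciEPC (log2 change 3.32 ± 0.45, adjusted p = 1.88e-05). Lamc1 had 547, 784 and 571 CPM in MEF and 2485 to 15518 CPM, median 5541, in ciEPC (log2 change 3.73 ± 0.42, adjusted p = 3.08e-06). Together with Lama1, at 8.73, 14.2 and 10.4 CPM in MEF and 3654 to 12125 CPM, median 7139.8, in ciEPC, they are the 3 chains of that laminin. In each of these chains the highest library was passage 10 of line 2. Col4a1 had 2172, 1982 and 1954 CPM in MEF and 6032 to 17487 CPM, median 9707, in ciEPC (log2 change 2.48 ± 0.41, adjusted p = 0.000132). Col4a2 had 1674, 1495 and 1562 CPM in MEF and 3941 to 13119.5 CPM, median 7443, in ciEPC (log2 change 2.40 ± 0.42, adjusted p = 0.000204). Per length, the mean levels were 1835 TPM for Lama1, 2486 for Lamb1, 3025 for Lamc1, 3989.6 for Col4a1 and 2689.5 for Col4a2.

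Of the basement membrane genes, 8 fell and 4 were not called. Among the falls were chains and linkers. Nid1, nidogen, which bridges laminin and collagen IV, had 1817, 1512 and 1351 CPM in MEF and 2.92 to 476 CPM, median 28.7, in ciEPC (log2 change -4.16 ± 0.49, adjusted p = 4.12e-06, -5.11 to -3.83 over the leave-outs). Lama4, the laminin chain of vessels and mesenchyme, had 179, 285 and 239.6 CPM in MEF and 0.858 to 44 CPM, median 6.34, in ciEPC (log2 change -4.16 ± 0.39, adjusted p = 4e-07). Col4a5, a chain of the alternative collagen IV network, had 134, 102 and 130 CPM in MEF and 0 to 2.33 CPM, median 0.359, in ciEPC (log2 change -7.63 ± 0.83, adjusted p = 1.92e-06, -8.50 to -7.33 over the leave-outs). Hspg2, perlecan, fell least of those named, with 2739, 2585 and 2293 CPM in MEF and 625 to 1401 CPM, median 866, in ciEPC (log2 change -1.48 ± 0.32, adjusted p = 0.00116). Lama5 did not pass the test and had 86.6, 108 and 105 CPM in MEF and 38.5 to 186 CPM, median 67.5, in ciEPC.

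**Figure D3:**
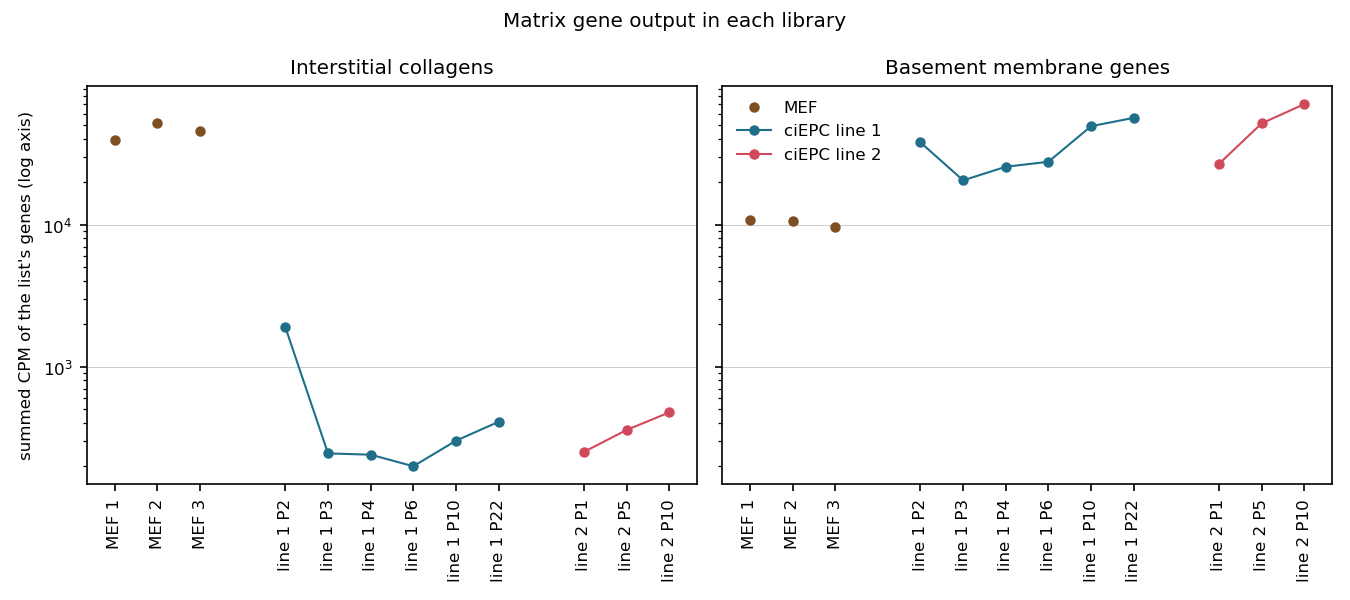
Summed CPM of the interstitial collagen genes (left) and the basement membrane genes (right) in each library, on a log axis, with MEF cultures in brown, line 1 in blue and line 2 in red. Collagens summed to 39146 CPM or more in MEF and to at most 1890.1 in ciEPC, the highest being passage 2 of line 1; basement membrane genes summed to at most 10839 in MEF and at least 20458 in ciEPC.

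Collagen processing genes moved unevenly (2 rose and 10 fell among 21 tested of 21 listed, median log2 change -0.42). P4ha2, a prolyl hydroxylase subunit, had 107, 117 and 98.7 CPM in MEF and 671 to 1731 CPM, median 948, in ciEPC (log2 change 3.59 ± 0.33, adjusted p = 3.25e-07). Lox, the lysyl oxidase that cross-links fibrils, had 3063, 2249.9 and 3254 CPM in MEF and 0 to 74.6 CPM, median 0, in ciEPC (log2 change -8.50 ± 0.98, adjusted p = 3.36e-06, -16.42 to -7.63 over the leave-outs). Loxl1, which cross-links elastin, had 652, 638 and 706 CPM in MEF and 0 to 12.3 CPM, median 0, in ciEPC (log2 change -8.69 ± 0.59, adjusted p = 2.02e-08, -14.32 to -8.04 over the leave-outs). Serpinh1, the collagen chaperone HSP47, did not pass the test, with 2709.8, 3617 and 2136 CPM in MEF and 2207 to 3792 CPM, median 2642, in ciEPC. Sparc, a collagen-binding glycoprotein, did not pass it either, with 3302, 4297 and 3819 CPM in MEF and 3782 to 9739 CPM, median 5217, in ciEPC (log2 change 0.87 ± 0.47, adjusted p = 0.142).

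Proteases and receptors of the matrix changed with it. Of the proteases and their inhibitors, 1 rose and 15 fell among 19 tested of 19 listed (median log2 change -3.71). Mmp14, the membrane protease of fibroblast invasion, had 731, 765 and 927 CPM in MEF and 13 to 83.4 CPM, median 26.4, in ciEPC (log2 change -4.63 ± 0.50, adjusted p = 1.64e-06, -5.43 to -4.12 over the leave-outs). Mmp15, its relative, rose, with 3.37, 12.4 and 4.9 CPM in MEF and 94 to 176 CPM, median 133, in ciEPC (log2 change 4.28 ± 0.50, adjusted p = 3.9e-06, 4.0 to 5.05 over the leave-outs). The proteases of the MEFs were thus not lost uniformly, since this pair of membrane-type enzymes moved in opposite directions. Of the integrins and matrix receptors, 3 rose and 17 fell among 25 tested of 25 listed (median log2 change -2.43). Itga3, the alpha chain of a laminin receptor, had 24.2, 51.7 and 25.4 CPM in MEF and 268 to 797 CPM, median 413, in ciEPC (log2 change 3.74 ± 0.37, adjusted p = 8.28e-07). Itgb1, the beta chain shared by most collagen and fibronectin receptors, had 3126, 2143 and 2819.9 CPM in MEF and 159 to 311 CPM, median 243, in ciEPC (log2 change -3.36 ± 0.27, adjusted p = 1.11e-07). Itga11, the alpha chain of a fibrillar collagen receptor, had 189, 184 and 139 CPM in MEF and 0 to 0.373 CPM, median 0, in ciEPC (1386-fold lower by counts, counting interval 473 to 6725, adjusted p = 1.95e-08).

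Genes of the contractile apparatus fell as well (0 rose and 19 fell among 21 tested of 21 listed, median log2 change -4.60), its summed level being 26365 to 39429 CPM in MEF and 2769 to 3803 CPM in ciEPC. Cnn1, calponin, had 212, 124 and 92.2 CPM in MEF and 0 to 1.71 CPM, median 0, in ciEPC (log2 change -8.79 ± 0.68, adjusted p = 1.04e-07, -10.82 to -8.37 over the leave-outs), with its residue at passage 3 of line 1 and passage 5 of line 2. The size of the change differed between members. Myh9, a non-muscle myosin heavy chain, did not reach a 2-fold change, with 3834, 2858 and 2831 CPM in MEF and 1033 to 2336 CPM, median 1397, in ciEPC (log2 change -0.90 ± 0.23, adjusted p = 0.00486). Tpm2, beta-tropomyosin, had 763, 541 and 430.1 CPM in MEF and 0 to 8.33 CPM, median 0.487, in ciEPC (log2 change -8.27 ± 0.58, adjusted p = 2.76e-08, -10.21 to -7.74 over the leave-outs). Myl9, a regulatory myosin light chain, had 734, 565 and 428 CPM in MEF and 1.33 to 43 CPM, median 7.3, in ciEPC (log2 change -5.22 ± 0.62, adjusted p = 4.48e-06). Srf, the factor that drives these genes through the CArG box, did not reach a 2-fold change, with 178, 152 and 109.8 CPM in MEF and 44.8 to 206 CPM, median 76.5, in ciEPC (log2 change -0.82 ± 0.28, adjusted p = 0.022). Of the caveola genes, 0 rose and 6 fell among 7 tested of 7 listed, and Cav1 had 772, 491 and 456 CPM in MEF and 0 to 47.3 CPM, median 0.373, in ciEPC (log2 change -6.67 ± 0.83, adjusted p = 1.02e-05, -10.19 to -5.92 over the leave-outs). Of the caveola genes, 1 rose without MEF culture 1.

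Ctgf, Cyr61 and Ankrd1, targets of the mechanosensitive coactivator YAP, fell without a called change in YAP itself. Most of the Hippo list did not fall: 3 rose, 7 fell and 11 were not called among 21 tested of 21 listed (median log2 change -0.52). Ctgf, a matricellular YAP target, had 2956, 1127 and 1079.8 CPM in MEF and 0.459 to 106 CPM, median 4.38, in ciEPC (log2 change -6.84 ± 1.07, adjusted p = 6.9e-05, -9.06 to -6.07 over the leave-outs). Cyr61, its relative, had 1389, 1109 and 652 CPM in MEF and 8.4 to 357 CPM, median 56.9, in ciEPC (log2 change -3.87 ± 0.67, adjusted p = 0.000179, -5.82 to -3.09 over the leave-outs). Ankrd1, a nuclear YAP target, had 226, 108 and 80.1 CPM in MEF and 0 to 2.67 CPM, median 0, in ciEPC (log2 change -8.29 ± 0.75, adjusted p = 7.83e-07, -12.06 to -7.72 over the leave-outs). Yap1 had 293, 253 and 272 CPM in MEF and 162 to 299.8 CPM, median 233, in ciEPC (log2 change -0.16 ± 0.16, adjusted p = 0.411). Its DNA-binding partner Tead1 had 646, 561 and 582 CPM in MEF and 260.4 to 501 CPM, median 323, in ciEPC (log2 change -0.75 ± 0.17, adjusted p = 0.00183), a change under 2-fold. Of the Hippo genes, 1 rose without line 1.

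Most surface markers and positional factors of the fibroblast fell as well, with exceptions. In the mesenchymal surface and cytoskeletal list, 1 rose and 14 fell among 17 tested of 17 listed (median log2 change -4.66). Of the mesenchymal and positional factors, 3 rose and 20 fell among 29 tested of 30 listed (median log2 change -2.71), and of the Hox genes 1 rose and 29 fell among 36 tested of 39 listed (median log2 change -3.43). Prrx1, the homeobox factor of limb mesenchyme, had 612, 480.1 and 563 CPM in MEF and 0 to 30.3 CPM, median 0, in ciEPC (log2 change -7.06 ± 0.74, adjusted p = 2.06e-06, -14.05 to -6.30 over the leave-outs). Tbx15, a T-box factor of trunk and limb mesenchyme, had 94.3, 122 and 104 CPM in MEF and 3.67 to 20.5 CPM, median 13.3, in ciEPC (log2 change -3.05 ± 0.24, adjusted p = 7.73e-08). Pitx1, a hindlimb and pituitary homeobox factor, was the main exception, with 17.1, 25.9 and 15.6 CPM in MEF and 59 to 1336 CPM, median 456, in ciEPC (log2 change 4.70 ± 0.41, adjusted p = 2.1e-07, 4.02 to 5.18 over the leave-outs). Its levels above 450 CPM were all at passages 6 or earlier. Hoxa10 did not pass the test and had 28.2, 29.8 and 25.7 CPM in MEF and 4.19 to 44.1 CPM, median 21.4, in ciEPC, while Hoxc8, in another cluster, had 23.2, 24.5 and 23.6 CPM in MEF and 0 to 5.02 CPM, median 0.599, in ciEPC (log2 change -4.54 ± 0.51, adjusted p = 3.97e-06, -5.60 to -4.12 over the leave-outs).

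**Figure D4:**
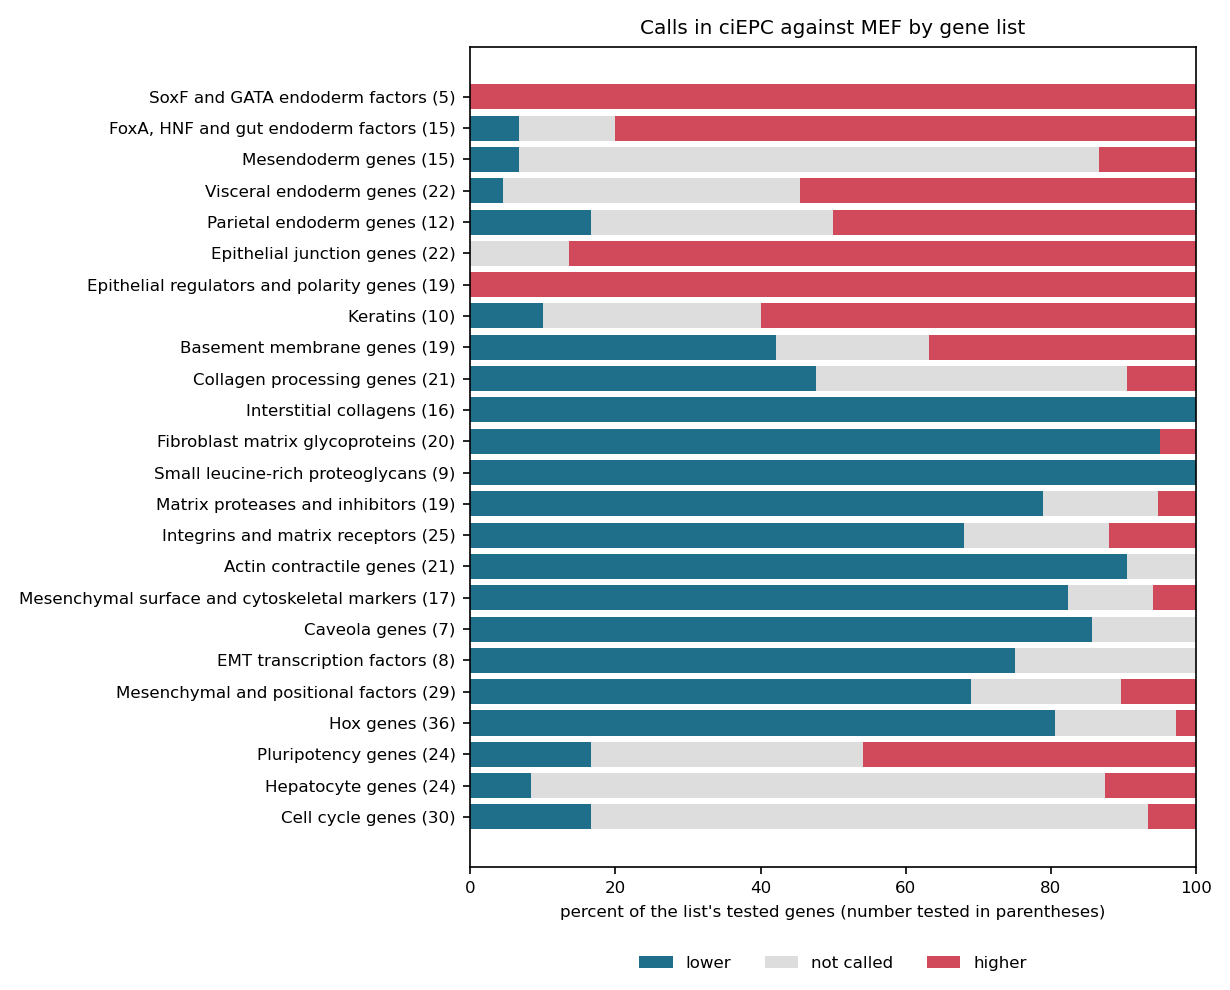
Percent of the tested genes of 24 lists that rose (red), fell (blue) or did not pass the test (grey) in ciEPC against MEF, with the number tested beside each name. All genes of the SoxF and GATA and the epithelial regulator lists rose and all interstitial collagens and small leucine-rich proteoglycans fell. Most cell cycle, mesendoderm and hepatocyte genes were not called, like most genes tested, of which 34.0% were called.

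Growth factor receptors were exchanged within families. In the receptor kinase list, 8 rose and 14 fell among 30 tested of 30 listed (median log2 change -1.51). Kit, the stem cell factor receptor, had 1.01, 2.29 and 1.44 CPM in MEF and 195 to 1519 CPM, median 767, in ciEPC (log2 change 8.96 ± 0.55, adjusted p = 1.09e-08). Its ligand Kitl had 12.8, 9.84 and 12.1 CPM in MEF and 48.3 to 202 CPM, median 105, in ciEPC (log2 change 3.41 ± 0.46, adjusted p = 1.55e-05). Pdgfra, a receptor of both fibroblasts and primitive endoderm, rose, with 135, 279.6 and 215 CPM in MEF and 693 to 1478 CPM, median 964, in ciEPC (log2 change 2.43 ± 0.42, adjusted p = 0.000163), and its ligand Pdgfa had 32.3, 26.6 and 23.9 CPM in MEF and 28.5 to 166 CPM, median 96.1, in ciEPC (log2 change 1.95 ± 0.21, adjusted p = 1.45e-06, ranges overlapping). Receptor and ligand of this pair therefore rose together. Pdgfrb, the other receptor of the family, had 468, 536 and 601 CPM in MEF and 1.14 to 16.7 CPM, median 2.85, in ciEPC (log2 change -6.87 ± 0.52, adjusted p = 5.55e-08), and the ligand Pdgfc had 115, 115 and 127 CPM in MEF and 0 to 2.67 CPM, median 0.599, in ciEPC (log2 change -6.95 ± 0.63, adjusted p = 3.11e-07, -8.46 to -6.51 over the leave-outs). The FGF receptors divided in the same way. Fgfr1, the main fibroblast receptor, had 423, 437 and 458 CPM in MEF and 8.28 to 86.6 CPM, median 13.2, in ciEPC (log2 change -4.39 ± 0.39, adjusted p = 2.84e-07, -5.13 to -3.92 over the leave-outs). Fgfr4, the receptor of liver and endoderm, had 1.01, 0.458 and 0.577 CPM in MEF and 111 to 231 CPM, median 142, in ciEPC (log2 change 7.87 ± 0.70, adjusted p = 2.46e-07). The ligand Fgf3 had no counts in MEF and 9.69 to 63.8 CPM, median 15.1, in ciEPC (at least 72.7-fold higher, adjusted p = 1.88e-06).

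Several ligands of the TGF-beta family, which sustain fibroblast matrix production, fell. Over the TGF-beta list, 3 rose and 14 fell among 24 tested of 24 listed (median log2 change -2.22). Tgfb1 had 91.3, 81 and 81.3 CPM in MEF and 1.21 to 9.04 CPM, median 3.73, in ciEPC (log2 change -4.14 ± 0.30, adjusted p = 3.13e-08). Tgfb3 had 370.3, 321 and 334 CPM in MEF and 0 to 1.96 CPM, median 0.359, in ciEPC (log2 change -9.20 ± 0.69, adjusted p = 8.31e-08, -9.85 to -8.99 over the leave-outs). Inhba, the activin A subunit, had 299, 120.4 and 103 CPM in MEF and 0 to 8 CPM, median 0, in ciEPC (log2 change -7.33 ± 0.72, adjusted p = 1.76e-06, -12.39 to -6.70 over the leave-outs). The type 2 receptor Tgfbr2 did not pass the test, with 151, 228 and 273 CPM in MEF and 63.3 to 323 CPM, median 159, in ciEPC. In the BMP list, 3 rose and 6 fell among 21 tested of 21 listed (median log2 change -0.45). Bmp2, a ligand made by visceral endoderm, had 1.34, 4.58 and 2.59 CPM in MEF and 35.4 to 208 CPM, median 61.3, in ciEPC (log2 change 4.61 ± 0.48, adjusted p = 1.2e-06), and Bmp4, a mesenchymal ligand, had 32.2, 88.1 and 42.1 CPM in MEF and 0.444 to 11 CPM, median 1.07, in ciEPC (log2 change -4.77 ± 0.61, adjusted p = 1.02e-05, -6.10 to -4.25 over the leave-outs). Of the BMP genes, 1 rose without MEF culture 1, MEF culture 3 or line 1.

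Wnt genes moved both ways: 10 rose and 13 fell among 28 tested of 28 listed (median log2 change -0.63). Axin2, a negative feedback target of beta-catenin, had 3.29, 11.2 and 7.78 CPM in MEF and 72 to 137 CPM, median 105, in ciEPC (log2 change 3.93 ± 0.32, adjusted p = 9.34e-08). Rnf43, a ligase that removes Frizzled receptors, had 1.68, 3.21 and 3.17 CPM in MEF and 10.7 to 73.8 CPM, median 22.2, in ciEPC (log2 change 3.59 ± 0.39, adjusted p = 1.97e-06, 2.97 to 4.03 over the leave-outs). Wnt11, a non-canonical ligand, had 12.1, 21.5 and 11.2 CPM in MEF and 86.2 to 218 CPM, median 152, in ciEPC (log2 change 3.41 ± 0.38, adjusted p = 2.75e-06). On the other side stood mesenchymal genes. Wnt5a, a ligand of mesenchyme, had 235, 182 and 162 CPM in MEF and 1.43 to 26 CPM, median 10.2, in ciEPC (log2 change -4.12 ± 0.40, adjusted p = 9.39e-07). Fzd2, a Frizzled receptor of mesenchyme, had 159.8, 226 and 219 CPM in MEF and 1.43 to 7 CPM, median 2.52, in ciEPC (log2 change -5.94 ± 0.38, adjusted p = 1.29e-08). Of the Hedgehog genes, 3 rose and 7 fell among 12 tested of 13 listed (median log2 change -2.09). Gli3, a transcription factor of the pathway, had 101, 179 and 102 CPM in MEF and 2.86 to 21.9 CPM, median 5.88, in ciEPC (log2 change -3.60 ± 0.38, adjusted p = 1.27e-06), and Cdon, a co-receptor, had 45, 152 and 98.3 CPM in MEF and 2.57 to 16.9 CPM, median 5.97, in ciEPC (log2 change -3.66 ± 0.39, adjusted p = 1.4e-06). Ptch1, receptor and feedback target at once, did not pass the test, with 21.5, 45.1 and 23.9 CPM in MEF and 15.6 to 54 CPM, median 24.4, in ciEPC. Of the hedgehog genes, 1 rose without MEF culture 3 or line 1.

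Among retinoid genes, 3 rose and 8 fell among 16 tested of 16 listed (median log2 change -1.64). Cyp26a1, the enzyme that degrades retinoic acid and is itself induced by it, had 0.336, 0.229 and 0 CPM in MEF and 112 to 669.9 CPM, median 457, in ciEPC (2240.2-fold higher by counts, counting interval 620 to 18501, adjusted p = 3.82e-07). Stra6, the retinol transporter, had 1.01, 3.66 and 1.15 CPM in MEF and 22.8 to 111 CPM, median 35.6, in ciEPC (log2 change 4.59 ± 0.49, adjusted p = 1.73e-06, 4.33 to 5.49 over the leave-outs). Rarg, the receptor of mesenchyme, had 94, 138 and 124 CPM in MEF and 0.746 to 10.3 CPM, median 1.42, in ciEPC (log2 change -5.64 ± 0.53, adjusted p = 4.11e-07, -6.75 to -5.21 over the leave-outs). Crabp1, a retinoic acid carrier, had 511, 323 and 617 CPM in MEF and 0 to 86.6 CPM, median 0, in ciEPC (log2 change -5.67 ± 0.84, adjusted p = 4.03e-05, -13.86 to -4.82 over the leave-outs).

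In the pluripotency list, 11 rose and 4 fell among 24 tested of 24 listed (median log2 change 3.23, 1.57 with genes at 0 counts set to their bound), while 21 rose when the library of line 2 at passage 22 was included. Sall4, a zinc finger factor shared by stem cells and extraembryonic endoderm, had 0.336, 0.229 and 0 CPM in MEF and 112 to 231 CPM, median 164, in ciEPC. Lin28a, which blocks let-7 processing, had 0.336, 0 and 0 CPM in MEF and 35.5 to 104 CPM, median 71.5, in ciEPC. Klf4 had 71.2, 124 and 33.7 CPM in MEF and 411 to 1038 CPM, median 587, in ciEPC. Pou5f1 had 8.73, 1.37 and 1.41 CPM in MEF and 0 to 0.373 CPM, median 0, in ciEPC, and its MEF level was highest in the first culture. Nanog had 1.55, 1.76 and 0.288 CPM in MEF and 0 to 1.19 CPM, median 0, in ciEPC (ranges overlapping). Sox2 had 5.04, 1.83 and 0.865 CPM in MEF and 0 to 1.2 CPM, median 0.7, in ciEPC (ranges overlapping). These ciEPC levels follow in part from the choice of libraries, since the one set aside, line 2 at passage 22, had 1223 CPM of Pou5f1 and 864 of Nanog. It had 0 CPM of Sox7 and 0.491 of Gata6, below every other ciEPC library. Of the trophoblast genes, 8 rose and 1 fell among 18 tested of 20 listed (median log2 change 1.33). Of the pluripotency genes, 1 fell without MEF culture 1 or line 1 and 2 fell without MEF culture 2, line 2, passage 4 of line 1, passage 10 of line 1 or passage 5 of line 2. Of the trophoblast genes, 5 rose without line 1.

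Growth control shifted at a few nodes. Of the cell cycle genes, 2 rose and 5 fell among 30 tested of 30 listed (median log2 change -0.09), beside 17.1% and 16.9% of all genes. Ccnd2, cyclin D2, had 954, 571 and 862 CPM in MEF and 11.2 to 213 CPM, median 67, in ciEPC (log2 change -3.18 ± 0.63, adjusted p = 0.000575). Cdk2 had 47.3, 64.8 and 48.4 CPM in MEF and 83 to 263 CPM, median 169.8, in ciEPC (log2 change 1.74 ± 0.17, adjusted p = 7.01e-07). Mybl2, a factor of G2 genes, had 49.1, 52.1 and 29.3 CPM in MEF and 163 to 410.1 CPM, median 289, in ciEPC (log2 change 2.82 ± 0.46, adjusted p = 9.94e-05). In the p53 and Ink4 list, 1 rose and 6 fell among 18 tested of 18 listed (median log2 change -0.49). Cdkn2b, the p15 inhibitor induced by TGF-beta, had 67.5, 52.4 and 75.2 CPM in MEF and 1.46 to 17.7 CPM, median 2.52, in ciEPC (log2 change -3.86 ± 0.39, adjusted p = 8.28e-07, -4.63 to -3.45 over the leave-outs), while Cdkn2a, the senescence barrier beside it, did not pass the test, with 16.4, 10.3 and 27.4 CPM in MEF and 7.19 to 59 CPM, median 14.6, in ciEPC. Hmga2, a chromatin protein of growing mesenchyme that let-7 represses, had 1181, 964 and 822 CPM in MEF and 26.9 to 81.4 CPM, median 51.2, in ciEPC (log2 change -4.16 ± 0.40, adjusted p = 5.69e-07). Of the p53 and Ink4 genes, 3 rose without MEF culture 2, 2 rose without line 2 and 0 rose without passage 10 of line 1.

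Among chromatin genes (6 rose and 1 fell among 20 tested of 20 listed, median log2 change 0.12), the de novo methyltransferase Dnmt3b had 4.03, 7.33 and 5.48 CPM in MEF and 16 to 166 CPM, median 97, in ciEPC (log2 change 4.12 ± 0.34, adjusted p = 1.4e-07) and its relative Dnmt3a did not pass the test, with 40.4, 96.8 and 75.5 CPM in MEF and 33.6 to 91.9 CPM, median 43.4, in ciEPC. Of the imprinted genes, 2 rose and 13 fell among 25 tested of 25 listed (median log2 change -1.25). Grb10, a growth inhibitor, had 1406, 2288 and 1525 CPM in MEF and 93.8 to 275 CPM, median 141, in ciEPC (log2 change -3.50 ± 0.63, adjusted p = 0.000251). Mest had 68.7, 495 and 164 CPM in MEF and 1.22 to 8.48 CPM, median 4.31, in ciEPC (log2 change -5.65 ± 0.90, adjusted p = 8.68e-05, -6.09 to -4.62 over the leave-outs). Peg10, a retrotransposon-derived placental gene, rose, with 103, 156 and 78.4 CPM in MEF and 525 to 6546 CPM, median 2523, in ciEPC (log2 change 4.72 ± 0.45, adjusted p = 5.73e-07). H19, a non-coding RNA of mesoderm and endoderm, had 4549, 13033 and 6202 CPM in MEF and 2.66 to 4027 CPM, median 170.2, in ciEPC (log2 change -3.39 ± 0.80, adjusted p = 0.00247, -6.20 to -2.50 over the leave-outs). In line 1 it had 1052, 4027, 1487, 170.2, 6.11 and 7.09 CPM in passage order, and in line 2 295, 33.3 and 2.66. It was thus above 1000 CPM at passages 2 to 4 of line 1 and under 10 at the last passages of both lines. Of the imprinted genes, 1 rose without MEF culture 3 or line 2.

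Among metabolic genes, 5 rose and 3 fell among 22 tested of 22 listed in the glycolysis list (median log2 change -0.04). Slc2a3, the high-affinity glucose transporter GLUT3, had 15.5, 22.7 and 17.7 CPM in MEF and 852 to 1848 CPM, median 1271, in ciEPC (log2 change 6.15 ± 0.51, adjusted p = 1.24e-07), while Slc2a1, GLUT1, did not pass the test, with 159.8, 129 and 136 CPM in MEF and 62.8 to 508 CPM, median 139, in ciEPC. Ldhb, the heart-type lactate dehydrogenase, had 38.6, 66.2 and 37.2 CPM in MEF and 149 to 533 CPM, median 387, in ciEPC (log2 change 3.15 ± 0.27, adjusted p = 1.91e-07). Of the aquaporins, channels for water and glycerol, 4 rose and 0 fell among 6 tested of 8 listed. Aqp3 had 0.671, 0 and 0 CPM in MEF and 62.1 to 413 CPM, median 157, in ciEPC (1040.3-fold higher by counts, counting interval 288 to 8593, adjusted p = 3.42e-08). Classical MHC class I genes rose, though their partner did not. H2-K1 had 37.5, 30.5 and 35.4 CPM in MEF and 291 to 565 CPM, median 441, in ciEPC (log2 change 3.78 ± 0.24, adjusted p = 1.29e-08). H2-D1 had 43.3, 43.8 and 39.6 CPM in MEF and 129.6 to 411 CPM, median 202, in ciEPC (log2 change 2.76 ± 0.19, adjusted p = 2.43e-08). B2m, the shared light chain, did not pass the test, with 271, 281 and 275 CPM in MEF and 147 to 365 CPM, median 203, in ciEPC. The H2 genes are near-identical paralogs, and shorter reads are harder to assign among them, so the split between them is uncertain. Of the glycolysis genes, 5 fell without passage 5 of line 2. Of the aquaporins, 1 fell without passage 2 of line 1, MEF culture 2, line 1 or passage 6 of line 1.

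Markers of other cell types were checked in the same libraries. Macrophage markers summed to 44.3 to 70.2 CPM in MEF and 6.82 to 26.2 CPM in ciEPC (0 rose and 5 fell among 7 tested of 10 listed), and Lyz2 had 28.2, 11.9 and 27.4 CPM in MEF and 0 to 1.22 CPM, median 0, in ciEPC (log2 change -6.60 ± 1.15, adjusted p = 0.000373, -9.43 to -6.08 over the leave-outs). Skeletal muscle markers summed to 186 to 477 CPM in MEF and 2.22 to 11.7 CPM in ciEPC (0 rose and 7 fell among 7 tested of 10 listed), the top being the second MEF culture. Neural and glial markers summed to 254 to 411 CPM in MEF and 18.3 to 132 CPM in ciEPC (2 rose and 4 fell among 8 tested of 10 listed). Endothelial markers summed to 175 to 223 CPM in MEF and 395 to 1089.7 CPM in ciEPC (4 rose and 3 fell among 10 tested of 10 listed). Cdh5, VE-cadherin, had 0.336, 0.687 and 0.288 CPM in MEF and 21.4 to 351 CPM, median 83.7, in ciEPC (log2 change 8.49 ± 0.89, adjusted p = 3.14e-06, 7.88 to 9.0 over the leave-outs), and Tek, the angiopoietin receptor, had 0.671, 1.37 and 1.15 CPM in MEF and 20.8 to 86.6 CPM, median 49.6, in ciEPC (log2 change 5.52 ± 0.60, adjusted p = 1.77e-06). Pecam1, a defining endothelial marker, had 0.678, 0.916 and 0.672 CPM in MEF and 0 to 2.76 CPM, median 1.2, in ciEPC. Some other endothelial markers were lower in ciEPC. Mean levels of Kdr, Emcn and Erg were 3.46, 4.31 and 3.23 TPM in MEF. In ciEPC they were 1.11, 0 and 0.626 TPM. Among macrophage markers, Cd68 was higher in ciEPC, at a mean of 23.4 TPM against 11.9 in MEF. The part of these other cells in the MEF levels was not tested. Of the macrophage markers, 1 rose without passage 2 of line 1, passage 3 of line 1, passage 4 of line 1 or passage 1 of line 2 and 3 fell without line 1. Of the endothelial markers, 1 fell without MEF culture 2 or line 2 and 0 fell without line 1.

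**Figure D5:**
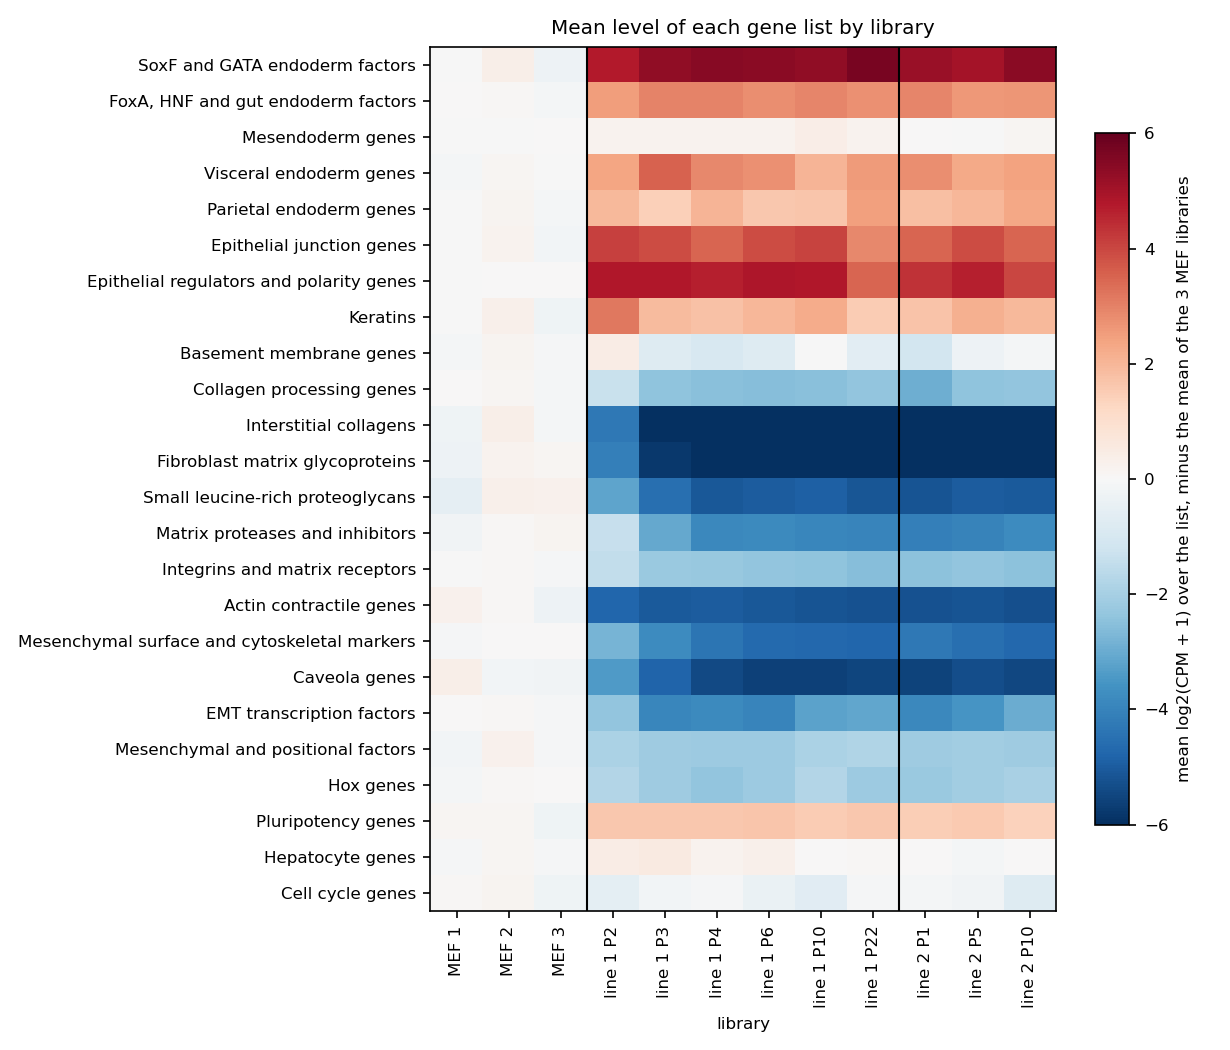
Mean log2(CPM + 1) over each of 24 gene lists in the 12 libraries, minus the mean of the 3 MEF cultures, with red above and blue below MEF and the colour full at 6 on the log2 scale. Passage 2 of line 1 is paler than the other 8 ciEPC libraries for the collagen, glycoprotein, protease and caveola lists.

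The ciEPC libraries were alike in most lists, with 2 that stood apart. At passage 2, line 1 was highest in several fibroblast genes: Col1a1 was at 129 CPM there against at most 5.7 in the other 8 libraries, Mmp2 at 259.9 against at most 15.4, and Timp2 at 191 against at most 23.9. The placental prolactins Prl2c2 (619 CPM) and Prl2c3 (939) were also highest there; they are near-identical copies, so their split is uncertain. Both prolactins rose, but not in all libraries: with passages 10 and 22 only, their log2 changes were -2.74 and -2.73. Without passage 2 of line 1, 2688 genes rose and 2853 fell. At passage 22, line 1 differed in RNAs of the sex chromosomes. Ddx3y, a gene of the Y chromosome, had 0.373 CPM there against 9.35 to 46.7 in the other 8 ciEPC libraries and 46.2 to 57.1 in MEF. Xist, the RNA that coats an inactive X, had 3300.1 CPM there against 394 to 1416 in the others and 368 to 463 in MEF. Both RNAs were present in each MEF culture and in the other 8 ciEPC libraries. Without passage 22 of line 1, 2768 genes rose and 2708 fell.

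The closest other comparison is that of neonatal dermal fibroblasts (MNF) with their ciEPCs (MNF_ciEPC), 2 libraries each, all with a read length of 74.5 bases. The MNF libraries were at passage 2 and the MNF_ciEPC libraries at passages 2 and 3. The source label of the MNF_ciEPC samples names MEF while their title, description and cell type name MNF, so their origin rests on those 3 labels. There 2990 genes rose (18.6%) and 3559 fell (22.2%). Of the genes that rose from MEF to ciEPC, 1712 also rose there, which is 62.3% of the MEF list and 57.3% of the MNF list, and 56 fell. Of those that fell from MEF, 2047 fell there too (75.3% and 57.5%), and 27 rose. The interstitial collagens gave 16 falls of 16 in that comparison, the epithelial regulators 17 rises of 19 and the visceral endoderm genes 17 rises of 22.

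The difference between the changes, MNF minus MEF, was tested in the same fit. The signed log2 change was higher from MNF for 1103 genes (6.87%) and lower for 1451 (9.04%). A gene that fell further from MNF thus counts as lower, and a gene that fell less counts as higher. The lists with the most such genes were the cell cycle genes, with 21 of 30 higher, and the interferon and MHC class I genes, with 12 of 23 lower. Read length changed with cell type only on the MEF side, and the lines from MEF ran to passage 22. Neither can be told apart from origin in this test. From MEF, 6 interferon and MHC genes rose and 3 fell, and from MNF 2 rose and 14 fell. No gene of the parietal endoderm list was called in this test. The pluripotency list is not judged by it, since the library set aside was chosen by its Pou5f1 and Nanog. Of the interferon and MHC class I genes, 7 fell without passage 2 of line 1.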

How the data were processed

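RNA-seq was analysed from the authors' deposited table of expected counts per gene, made with RSEM 1.2.4 against mm10 per the submitters' processing notes, and from the deposited TPM values of each sample. Trimming, aligner settings and strand use are not given in the sources used here, so overlapping and antisense genes cannot be told apart. Lengths in the per-sample tables gave the mean read length.

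Expected counts were rounded to whole numbers and the passages of each ciEPC line summed. All 9 groups entered 1 fit with 20 samples in edgeR 4.0.16 (R 4.3.3), with TMM scaling, the low-count filter at a minimum count of 10, and the quasi-likelihood test with Benjamini-Hochberg adjustment over 16055 of 31673 genes. The common biological coefficient of variation was 0.229. CPM of single libraries used the TMM-scaled library sizes. The members, gene lists and tests were chosen with earlier results of these data known. Genes were named by a rule: the 15 largest rises and 15 largest falls at 32 CPM or more without overlap between libraries, the 15 highest in TPM per group, and per list the 6 smallest adjusted p, the 4 highest in TPM and members called against their list's majority, with 32 core genes, from which the text draws; some genes it names are not reported here. Outside the rule, and chosen after their values were seen, are Cldn4, Cnn1, Col6a2, Dnmt3a, Eln, Esrp1, Grhl2, Hspg2, Jup, Lama5, Lrp2, Mmp2, Myh9, Myl9, Nid1, Ovol2, Pecam1, Pkp2, Postn, Prox1, Ptch1, Slc2a1, Srf, Tead1, Tgfbr2, Tjp1 and Yap1.

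A fold against a group at 0 is a bound from 3 counts over that group, and one against 1 to 3 counts has a 95% counting interval; both cover counting error only. Promoters came from RefSeq on GRCm38.p6. On data simulated for ciEPC against MEF over 15680 genes, the test recovered 18 of 69 genes changed 2-fold, 54 of 63 changed 4-fold and 67 of 68 changed 8-fold, with 7 false calls. The replicate numbers of MEF and ciEPC were not taken to pair the samples. Deviations of same-numbered samples correlated at -0.005 and -0.0321. With 2 lines the deviations of the lines mirror each other, so these values cannot decide whether cultures and lines were paired. Alternatives included DESeq2 1.42.0, limma 3.58.1 on log2(TPM + 1), other filters and scalings, and leaving out libraries.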

Additional observations from a re-analysis of the deposited data

Results flagged for a closer look

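The mean log2(CPM + 1) of each of 49 gene lists was examined over the 9 ciEPC libraries for a library far from the rest, by Dixon's criterion of 0.493, which chance passes in about 1 of 20 groups. Passage 2 of line 1 was the far library for 12 lists. It stood above the other 8, on the side of the MEF cultures, for interstitial collagens (5.14, against 0.93 to 2.28 in the others and at least 9.15 in MEF), fibroblast matrix glycoproteins (5.03, against 2.43 to 3.33), matrix proteases (5.0, against 2.26 to 3.28) and caveola genes (4.33, against 2.12 to 2.93). The same held for collagen processing genes (7.05), small leucine-rich proteoglycans (2.16), integrins (4.85), Hippo genes (6.71), TGF-beta genes (5.41), Wnt genes (3.89) and retinoid genes (3.76). Keratins were also highest there, at 4.99 against 3.37 to 4.06 in the others, but on the side away from MEF, which had 1.57 to 2.15. Whether passage 2 still held unconverted fibroblasts was not tested.

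Passage 22 of line 1 was the far library for the junction genes, at 5.01 against 5.62 to 6.23 in the other 8, and for the sex chromosome genes, at 1.89 against 3.61 to 4.47. The causes were not tested.

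For 32 core genes the change from MNF was compared with that from MEF by edgeR's quasi-likelihood test. On the log2 scale it was larger from MNF by 3.86 ± 1.21 (SE) for Gata4 (adjusted p = 0.0351), by 3.08 for Krt8, by 5.07 ± 1.02 for Krt18 (adjusted p = 0.00339) and by 3.17 for Krt19. It was more negative from MNF for Twist1 (-3.69), Cdkn2a (-2.28) and Ddx3y (-9.42). Ddx3y, a gene of the Y chromosome, had no counts in either MNF_ciEPC library. Passage and read length cannot be told apart from origin in these differences either.

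The library of line 2 at passage 22, used in no comparison, held 1223 CPM of Pou5f1, 864 of Nanog and 389 of Sox2.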

How the results depend on the processing

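Over the 27 alternatives the number of genes that rose lay between 2196 and 3905 and the number that fell between 2049 and 3733, the highest of each without the fold minimum. Leaving out a replicate gave 2499 to 2641 rising and 2360 to 2642 falling genes. With the replicate block 2665 rose and 2641 fell, and the origins differed for 1087 and 1330 genes. The block changed the call of none of the 161 genes named and tested, a count without Kdr, Emcn, Erg and Cd68. Signed changes that were higher from MNF numbered 1688 with passages 10 and 22 only. Leaving out a replicate gave 703 to 1154 larger and 826 to 1435 smaller changes.

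With line 2 passage 22 included, the log2 change of Nanog became 6.17, of Pou5f1 5.22 and of Sox2 4.11, and 21 pluripotency genes rose. Prl2c2 was at -2.74 with passages 10 and 22 only and ran from -2.76 to 11.29 when a replicate was left out, the lowest without line 1, and Prl2c3 at -2.73 with passages 10 and 22 only. The causes were not tested. Of the 139 genes named as called, 134 kept the call under every alternative that gave them a value, which leaves out Pdx1 at the minimum count of 50; Nanog, Pou5f1, Sox2, Prl2c2 and Prl2c3 did not. At the minimum count of 50, 16 Hox genes fell.

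Changes near 2-fold are mostly missed here, with 2 lines against 3 cultures. A call also needs a fitted change of at least 2-fold, which drops some true 2-fold changes at any sample size. A gene not called is thus not shown to be unchanged. Low genes rest on few counts in libraries of 1439670 to 5218402.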
